A study of Homo sapiens with 12 samples.

Results

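SETD7 and 9 other genes with SETD or SETDB symbols were followed after knockdown of NUF2 in renal carcinoma cells. The 9 were SETD1A, SETD1B, SETD2, SETD3, SETD4, SETD5, SETD6, SETDB1 and SETDB2. SETD9 was not in this set and was counted among the other SET domain methyltransferases. The 10 were taken by gene symbol from 58302 genes, and the set was built around SETD7, which was selected on its measured rise after knockdown in these same libraries. The SETD7 response is therefore given as a description without a test, and the question asked of the other 9 is whether they moved with it. The libraries came from 769-P and ACHN cells, established human renal carcinoma lines that are both labelled as clear cell carcinoma. Cells of each line were transfected with siRNA against NUF2 (si-NUF2, in which siRNA-NUF2-2 and siRNA-NUF2-3 were mixed) or a control siRNA (si-NC) and harvested at 48 h, with 3 libraries per group and 12 in all. No modification of the cells besides the transfection is stated; 769-P was grown in RPMI-1640 and ACHN in Eagle's MEM, so line and medium cannot be told apart. Nothing states that the libraries of a group came from separate cultures, and p-values then measure only the spread between these libraries.

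The SET domain is the catalytic fold of most lysine methyltransferases and transfers a methyl group from S-adenosylmethionine to a lysine side chain. The genes of this group share that fold and differ in what they methylate. SETD1A and SETD1B write methylation of histone H3 lysine 4 at promoters within the WDR5, RBBP5, ASH2L and DPY30 complex, SETD2 trimethylates H3 lysine 36 along transcribed genes and is a tumor suppressor lost in many clear cell renal carcinomas, and SETDB1 and SETDB2 methylate H3 lysine 9 in silent chromatin. SETD7, also known as SET7/9, monomethylates H3 lysine 4 and a range of other proteins, among them DNMT1 and YAP1, whereas SETD3 methylates a histidine of actin and SETD6 the NF-kappa-B subunit RELA.

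Values are FPKM, fragments per kilobase of exon scaled to the depth of the library. Whole reads were recovered from them for 34602 genes and summed to between 27201725 and 35870391 per library. The depth implied by the scaling lay between 28768675 and 38542660 fragments. NUF2, a component of the kinetochore, was 3.68 ± 0.602 FPKM (SD, n = 3) with si-NUF2 and 18.3 ± 0.951 with si-NC in 769-P cells. The ACHN groups averaged 3.85 ± 1.53 and 13.8 ± 1.94 FPKM. The log2 fold change of NUF2 was -2.29 in 769-P (limma, adjusted p = 0.00118) and -1.87 in ACHN (adjusted p = 0.224, and 0.0122 with the replicate number as a block, since same-numbered libraries deviated together). The renal epithelial genes PAX8, PAX2, KRT8 and KRT18 were expressed in both lines, but LRP2 and AQP1 stayed under 1 FPKM, and of the clear cell markers VIM was high, CA9 reached only 0.121 FPKM and NDUFA4L2 averaged 0.0272 FPKM in 769-P and 3.29 in ACHN control cells. Leukocyte and endothelial markers reached at most 0.0953 FPKM, and of the fibroblast markers DCN reached 0.083, COL1A1 3.87 and PDGFRB 2.79 FPKM, the latter pair in ACHN. In bulk RNA, fewer cells expressing a gene and less RNA per cell cannot be told apart.

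SETD7 (ENSG00000145391, chr4:139495941-139606699, minus strand, hg38) was among the genes with the highest increase in both lines. In 769-P cells its level was 7.67, 8.69 and 8.55 FPKM with si-NUF2 and 2.60, 3.33 and 2.42 with si-NC. All 3 knockdown libraries lay above all 3 controls, and the means, 8.30 ± 0.553 and 2.78 ± 0.477 FPKM, differed by a ratio of 2.98. In ACHN cells it was 8.91, 6.33 and 10.8 FPKM with si-NUF2 and 3.48, 3.19 and 4.96 with si-NC. The groups again did not overlap, the means were 8.67 ± 2.23 and 3.88 ± 0.951 FPKM, and their ratio was 2.24. The log2 fold change of 1.56 in 769-P was exceeded by 51 of 14160 genes, and that of 1.15 in ACHN by 64 of 15116. Taken between libraries of the same number, the log2 difference was 1.53, 1.36 and 1.79 for the 769-P pairs and 1.36, 0.97 and 1.12 for the ACHN pairs, so the spread of the ACHN levels was shared by si-NUF2 and si-NC libraries of 1 number. The counts behind these values were 1067 to 2430 reads per control library and 3051 to 5132 per knockdown library.

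**Figure D1:**
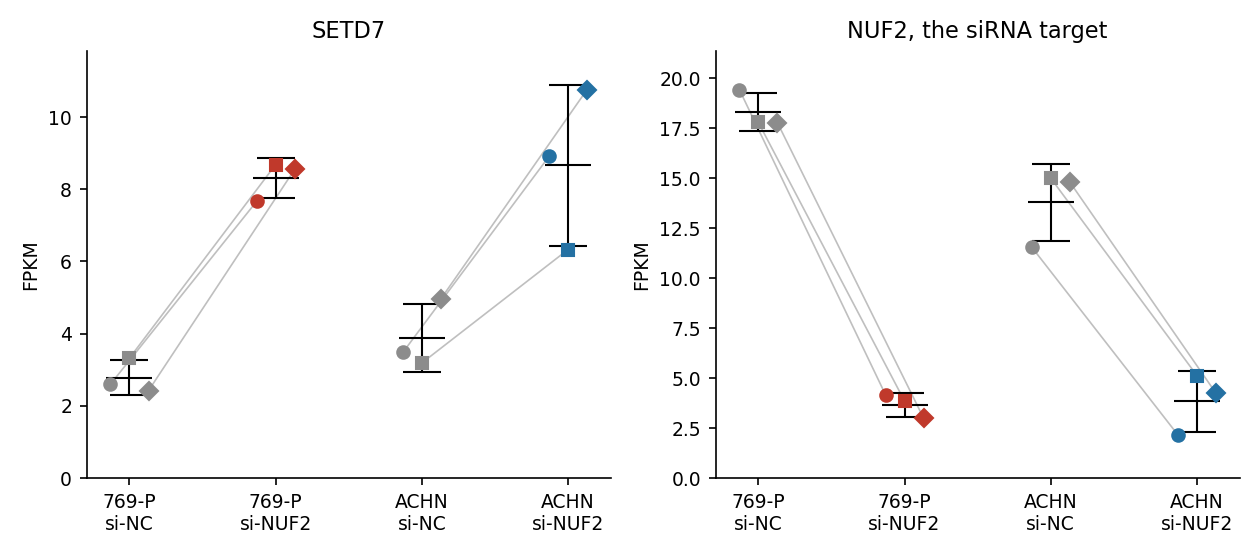
FPKM of SETD7 (left) and of NUF2 (right) in each of the 12 libraries; points are libraries, with circle, square and diamond for replicates 1, 2 and 3, grey lines join libraries of the same number, and bars give the mean ± SD of 3 libraries. SETD7 rose from 2.42 to 3.33 FPKM in 769-P controls to 7.67 to 8.69 with si-NUF2, and NUF2 fell in every pair of both lines.

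The rise changed the place of SETD7 within the group. By mean FPKM it ranked 9 of 10 in 769-P control cells and 3 of 10 after knockdown, and its ranges there did not overlap those of its neighbours. In ACHN cells it ranked 7 of 10 and then 5. Its range there overlapped that of SETD6 in the controls and those of SETD1B, SETD2, SETD3 and SETD5 after knockdown. These ACHN places are therefore not resolved. Its share of the summed FPKM of the 10 genes was 4.41% to 5.60% in 769-P control libraries and 13.02% to 14.8% in si-NUF2 libraries, and in ACHN it was 4.62% to 7.47% and 8.43% to 14.7%. The summed level of the other 9 genes was 54.6 ± 1.86 FPKM with si-NC and 50.8 ± 1.34 with si-NUF2 in 769-P cells. In ACHN cells the sums were 62.4 ± 3.05 and 64.0 ± 4.27 FPKM, in the same order. FPKM divides by all annotated exon bases of a gene, 13916 for SETD7, whereas its longest coding transcript has 7365 bases, so its rank against other genes depends on which exons the cells use.

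**Figure D2:**
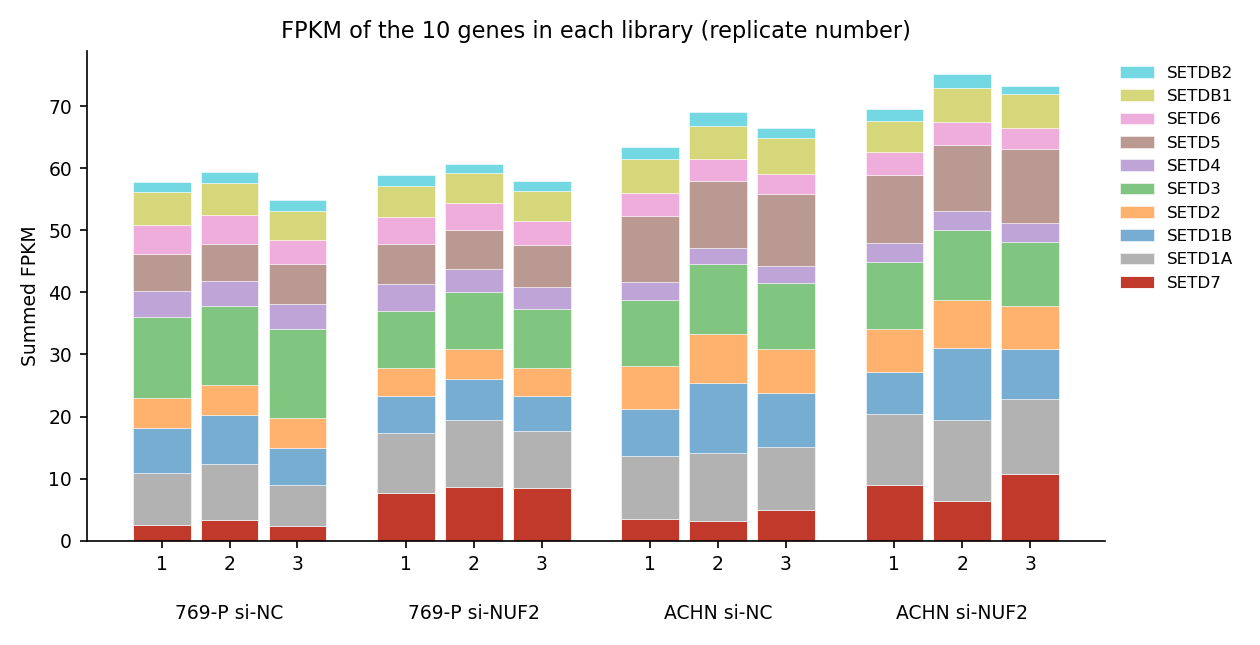
Summed FPKM of the 10 genes in each library, stacked by gene, with SETD7 at the base in red. The red segment made up 4.41% to 7.47% of the bars with si-NC and 8.43% to 14.8% with si-NUF2, while the total of the other 9 genes moved by less than 4 FPKM between group means.

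None of the other 9 genes reached the increase of SETD7. All 9 were above the low-value filter in each line, and their log2 fold changes ran from -0.50 (SETD3) to 0.32 (SETD1A) in 769-P cells, with a median of -0.06 beside -0.01 over all 14160 genes tested. With limma, 1 of the 9 passed an adjusted p of 0.05 in 769-P, SETD3, which fell; 10% of all genes tested passed, 5.29% higher and 4.74% lower. In ACHN cells the 9 log2 fold changes ran from -0.09 (SETDB2) to 0.25 (SETD1A), with a median of 0.00 in the 9 and of 0.01 over 15116 genes. None of the 9 passed there with limma, nor did any gene (0%), although 1 of the 9 and 1238 of all genes had an unadjusted p under 0.05, and limma-voom on the recovered reads also passed 0. With the replicate number as a block the spread was smaller, and SETD1A (higher) and SETD3 (lower) passed in 769-P, where 27.5% of genes did, and SETD1A (higher) in ACHN, where 12.2% of genes did, 7.14% of them higher and 5.05% lower. The highest upper bound of the 95% intervals of the 9 was 0.64 in 769-P and 0.51 in ACHN. SETD7 was measured at 1.56 and 1.15, but it was chosen for that rise, so the gap is a description and no test of separation. By the levels alone, the groups did not overlap for SETD1A and SETD3 in 769-P and for SETD1A and SETD4 in ACHN; 33.3% of all genes tested had groups that did not overlap in 769-P and 14.3% in ACHN. With 3 libraries against 3, an exact permutation test cannot give a two-sided p below 0.1.

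**Figure D3:**
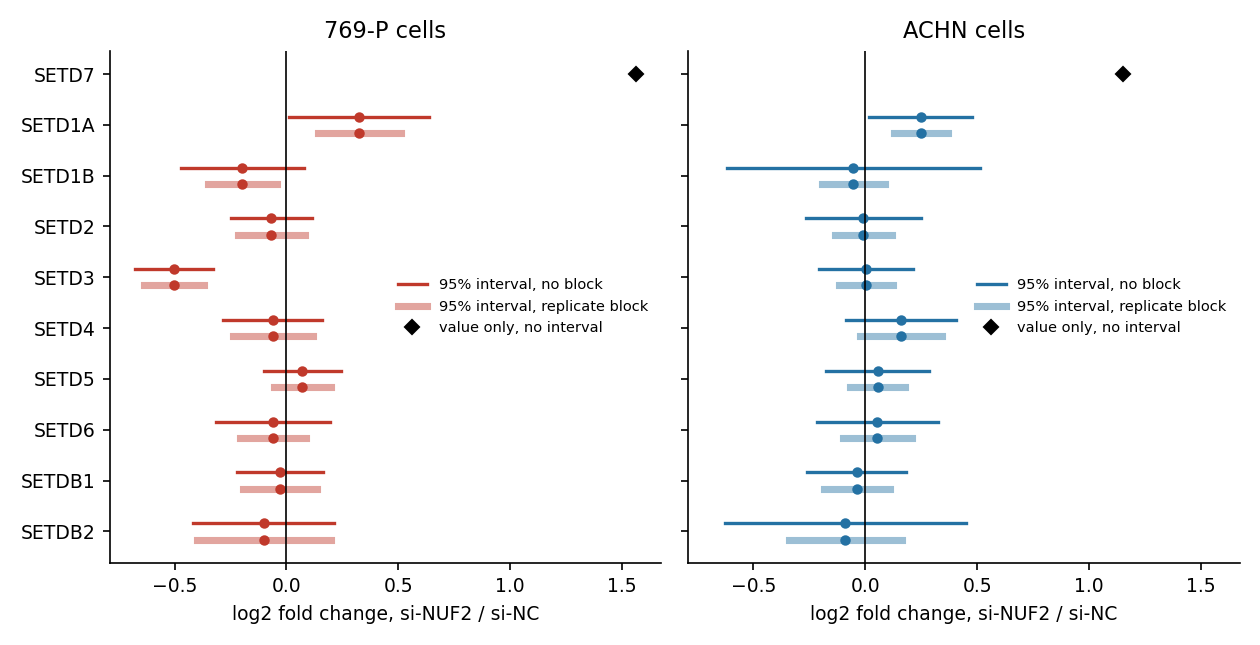
Log2 fold change of each gene with si-NUF2 against si-NC in 769-P (left) and ACHN cells (right), with 95% intervals from limma without (thin lines) and with (thick lines) the replicate number as a block. SETD7, shown as a value only, lies at 1.56 and 1.15, and the intervals of the other 9 genes lie between -0.68 and 0.64.

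Among the H3 lysine 4 methyltransferases, SETD1A (ENSG00000099381, chr16:30957294-30984664) was the other gene that was higher in every pair of both lines and whose groups did not overlap in either. Of all genes tested, 33.3% had groups without overlap in 769-P and 14.3% in ACHN. The share of all genes that met these conditions in both lines was not counted. In 769-P cells it was 9.61, 10.7 and 9.15 FPKM with si-NUF2 and 8.26, 9.03 and 6.49 with si-NC. The log2 fold change was 0.32 (standard error 0.132; limma, adjusted p = 0.167, and 0.031 with the block). In ACHN cells it was 11.4, 13.1 and 11.98 FPKM with si-NUF2 and 10.1, 10.9 and 10.1 with si-NC. The log2 fold change there was 0.25 (standard error 0.0946; limma, adjusted p = 0.565, and 0.0376 with the block), so the call rested on the block in both lines, with a change of 25.2% and 18.7%. Without 769-P si-NC replicate 3, the lowest control, the 769-P log2 fold change was 0.19. Its paralog SETD1B did not pass in either line, and its difference on the log2 scale was -0.20 in 769-P (limma, adjusted p = 0.324) and -0.05 in ACHN (adjusted p = 0.994). In ACHN cells SETD1B followed the replicate number, at 11.6 and 11.4 FPKM in the replicate 2 libraries of si-NUF2 and si-NC against 6.90 to 8.78 in the other 4.

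Of 8 subunits of the SETD1A and SETD1B complexes, 2 fell in 769-P cells and 0 rose, beside 10% of all genes called. WDR82, the subunit that tethers these enzymes to RNA polymerase II, was 20.1, 18.9 and 18.1 FPKM with si-NUF2 and 28.0, 29.6 and 31.1 with si-NC (log2 fold change -0.62, limma, adjusted p = 0.00733). DPY30, a core subunit that binds ASH2L, fell by 0.38 on the log2 scale (adjusted p = 0.0331). With the block 4 of 8 passed in 769-P, beside 27.5% of all genes, RBBP5 and BOD1 being the others and higher. In ACHN cells WDR82 was 20.2, 21.0 and 19.8 FPKM against 29.7, 28.5 and 27.4, again without overlap. None of the 8 passed in ACHN without the block; with it 5 did, beside 12.2% of all genes: WDR82 (-0.47, limma, adjusted p = 0.0133) and DPY30 (-0.26, adjusted p = 0.0465) were lower, and BOD1 (0.30, adjusted p = 0.0438), RBBP5 (0.28, adjusted p = 0.0353) and WDR5 were higher. The median log2 fold change of the 8 was 0.01 in 769-P and 0.06 in ACHN.

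SETD2 (ENSG00000181555, chr3:47016429-47163967) did not pass in either line. It was 4.51, 4.88 and 4.48 FPKM with si-NUF2 and 4.98, 4.88 and 4.76 with si-NC in 769-P cells, where the groups overlapped and the log2 fold change was -0.07 (95% interval -0.25 to 0.11; limma, adjusted p = 0.619). In ACHN cells the change was -0.01 (95% interval -0.27 to 0.25; limma, adjusted p = 0.997). Of 12 genes that partner SETD2 or read H3 lysine 36 methylation, IWS1, a transcription elongation factor that recruits SETD2, rose in 769-P cells from 13.3 to 14.4 FPKM in the controls to 16.7 to 18.0 (log2 fold change 0.33, limma, adjusted p = 0.032). PSIP1, a reader of that mark, fell from 24.5 to 25.3 FPKM to 17.0 to 21.0 (-0.36, adjusted p = 0.0465). The other 10 did not pass in 769-P, and 10% of all genes did. In ACHN 1 of 12 passed with the block, PHF19 (0.33, limma, adjusted p = 0.0219), beside 12.2% of all genes, and 0 without it.

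The H3 lysine 9 methyltransferases did not pass in either line. SETDB1 (ENSG00000143379, chr1:150926263-150964744) was 4.86, 4.88 and 4.90 FPKM with si-NUF2 and 5.25, 5.17 and 4.64 with si-NC in 769-P cells, overlapping, with a log2 fold change of -0.03 (95% interval -0.22 to 0.16). In ACHN its log2 fold change was -0.04 (95% interval -0.26 to 0.18). SETDB2, the gene with the lowest level of the 10 in every group, averaged 1.599 to 1.95 FPKM, and the 95% intervals of its log2 fold change were wider, -0.42 to 0.21 in the 769-P comparison and -0.63 to 0.45 in the ACHN comparison. SETDB1 shares exon bases with CERS2 on the opposite strand, which stood at 23.4 to 36.1 FPKM, and whether the counting used strand is not stated, so its reads cannot be fully told from those of CERS2.

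Of 10 SETDB1 partners, 3 passed in 769-P cells, beside 10% of all genes. TASOR, a subunit of the HUSH silencing complex that works with SETDB1 (listed as FAM208A in the files), rose from 3.91, 3.23 and 3.38 FPKM to 5.22, 4.73 and 5.0, a log2 fold change of 0.51 (limma, adjusted p = 0.0266). The heterochromatin proteins CBX5 (HP1 alpha; -0.37, limma, adjusted p = 0.0218) and CBX3 (HP1 gamma; -0.32, adjusted p = 0.0335) were lower, and with the block, under which 27.5% of all genes passed, CBX1 passed as well, higher. In ACHN cells, with the block alone, TASOR (0.36, limma, adjusted p = 0.033) and CBX1 (HP1 beta; 0.33, adjusted p = 0.0373) were higher, 2 of 9 tested beside 12.2% of all genes. The median log2 fold change of the 10 was -0.04 in 769-P, beside -0.01 over all genes, and that of the 9 was 0.04 in ACHN.

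SETD3 (ENSG00000183576, chr14:99397746-99480889), the actin histidine methyltransferase, was the only one of the 9 that passed without the block. In 769-P cells it was 9.25, 9.17 and 9.44 FPKM with si-NUF2 and 12.9, 12.7 and 14.3 with si-NC. All 3 knockdown libraries lay below all 3 controls, and the log2 fold change was -0.50 (standard error 0.0744; limma, adjusted p = 0.0128), a level lower by 29.4%. In ACHN cells it was 10.8, 11.2 and 10.3 FPKM with si-NUF2 and 10.7, 11.4 and 10.7 with si-NC. The ACHN groups overlapped and the log2 fold change was 0.00 (95% interval -0.21 to 0.21; adjusted p = 0.999). The 769-P call held with each library left out in turn and in each other setting tried (adjusted p from 0.00559 to 0.0483).

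**Figure D4:**
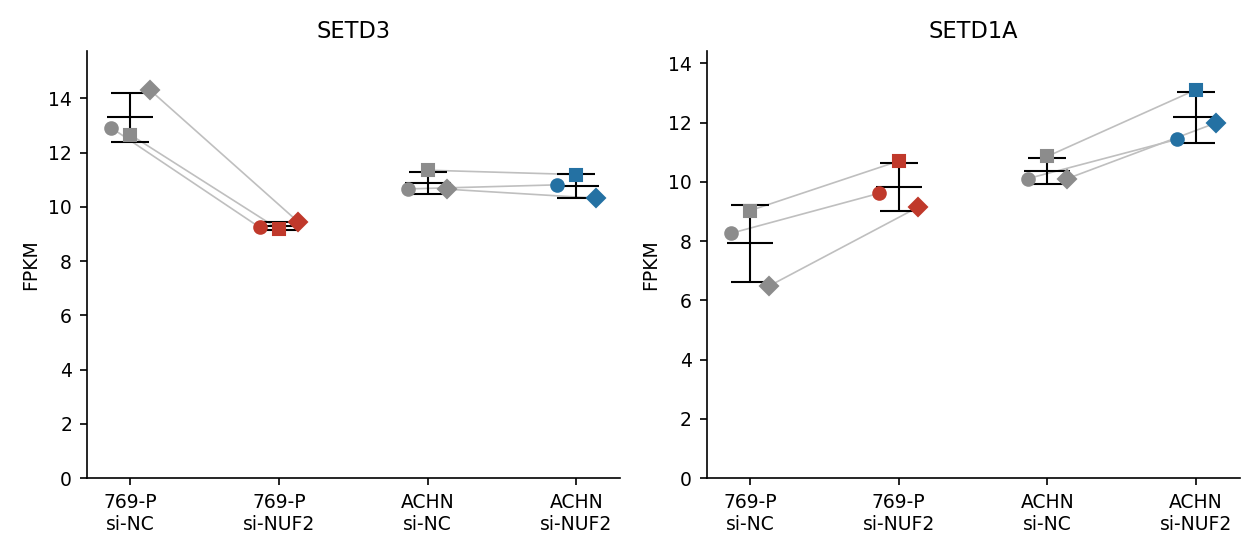
FPKM of SETD3 (left) and SETD1A (right) in each library; symbols, grey lines and bars as for SETD7, with circle, square and diamond for replicates 1, 2 and 3 and bars for the mean ± SD of 3 libraries. SETD3 was 12.7 to 14.3 FPKM in 769-P controls and 9.17 to 9.44 with si-NUF2, with no such step in ACHN cells, and SETD1A was higher in each pair of both lines.

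The remaining members did not pass. SETD5, a chromatin regulator mutated in intellectual disability, was higher in all 3 pairs of both lines, but by 0.07 and 0.05 on the log2 scale (limma, adjusted p = 0.578 in 769-P and 0.987 in ACHN), with overlapping groups. SETD4 was 3.01, 3.08 and 3.05 FPKM with si-NUF2 and 2.93, 2.58 and 2.75 with si-NC in ACHN cells. Those SETD4 groups did not overlap, and the log2 fold change was 0.16 (95% interval -0.08 to 0.40; limma, adjusted p = 0.802), while in 769-P it was -0.06. SETD6 was lower in all 3 pairs in 769-P (-0.06, limma, adjusted p = 0.762) and higher in all 3 in ACHN (0.05, adjusted p = 0.989), and its groups overlapped in both. SETD6 shares exon bases with CNOT1 on the opposite strand, which stood at 24.1 to 32.5 FPKM, so its reads carry the same limit as those of SETDB1. SETD1A and SETD4 overlap antisense genes of at most 0.603 FPKM, and the other 6 members overlap no annotated gene.

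The response was compared between the lines in a single model. For SETD7 the ACHN response less that of 769-P was -0.42 on the log2 scale, given without a test; it was -0.22 without ACHN si-NUF2 replicate 2 and -0.24 without ACHN si-NC replicate 3. Among the other 9, none differed between the lines with limma, where 0% of 16570 genes passed, 1 of the 9 and 772 of all genes had an unadjusted p under 0.05, and limma-voom passed 0 genes. With the replicate block 1 of 9 passed, SETD3, beside 1.39% of all genes. The ACHN response of SETD3 less that of 769-P was 0.50 (standard error 0.0601, limma, adjusted p = 0.0335 with the block and 0.822 without). SETD3 fell in 769-P, by -0.50 on the log2 scale, and its log2 fold change in ACHN was 0.00.

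The lines themselves were compared under si-NC, a contrast that did not select SETD7. There 4 of the 10 members passed between 769-P and ACHN, beside 61.4% of all genes tested, a share against which 4 of 10 is not high. SETD5 was 6.10, 6.02 and 6.39 FPKM in the 769-P libraries and 10.5, 10.7 and 11.5 FPKM in the ACHN libraries (log2 difference, 769-P less ACHN, -0.78; limma, adjusted p = 0.000452). SETD2 was 4.98, 4.88 and 4.76 FPKM in 769-P cells against 6.91, 7.87 and 7.04 FPKM in ACHN cells (-0.54, adjusted p = 0.00351). Both genes were lower in 769-P. SETD4 was higher in 769-P, at 4.05 to 4.17 FPKM against 2.58 to 2.93 (0.59, limma, adjusted p = 0.00332), and so was SETD3, at 12.7 to 14.3 against 10.7 to 11.4 (0.31, adjusted p = 0.0236). The SETD3 call was lost with the block (limma, adjusted p = 0.0514), under which 59.3% of all genes passed. That block joins same-numbered libraries of different lines, whereas shared deviation was examined only within a line. The call was also lost without 769-P si-NC replicate 1 (limma, adjusted p = 0.0548), 2 (0.0558) or 3 (0.0874) or ACHN si-NC replicate 3 (0.0568). SETD1A (-0.36, adjusted p = 0.0549) and SETD6 (0.34, adjusted p = 0.0538) lay just outside the threshold. SETD7 did not pass at -0.42 (95% interval -0.92 to 0.07; adjusted p = 0.12; -0.22 without ACHN si-NC replicate 3), and SETD1B, SETDB1 and SETDB2 did not pass either. In order of mean level, 769-P control cells ran SETD3, SETD1A, SETD1B, SETD5, SETDB1, SETD2, SETD6, SETD4, SETD7, SETDB2, and ACHN control cells SETD5, SETD3, SETD1A, SETD1B, SETD2, SETDB1, SETD7, SETD6, SETD4, SETDB2. Ranges of neighbours overlapped in both orders except SETD3 and SETD1A, SETD5 and SETDB1, SETD2 and SETD6, SETD4 and SETD7, and SETD7 and SETDB2 in 769-P, and SETD2 and SETDB1, SETDB1 and SETD7, SETD6 and SETD4, and SETD4 and SETDB2 in ACHN.

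**Figure D5:**
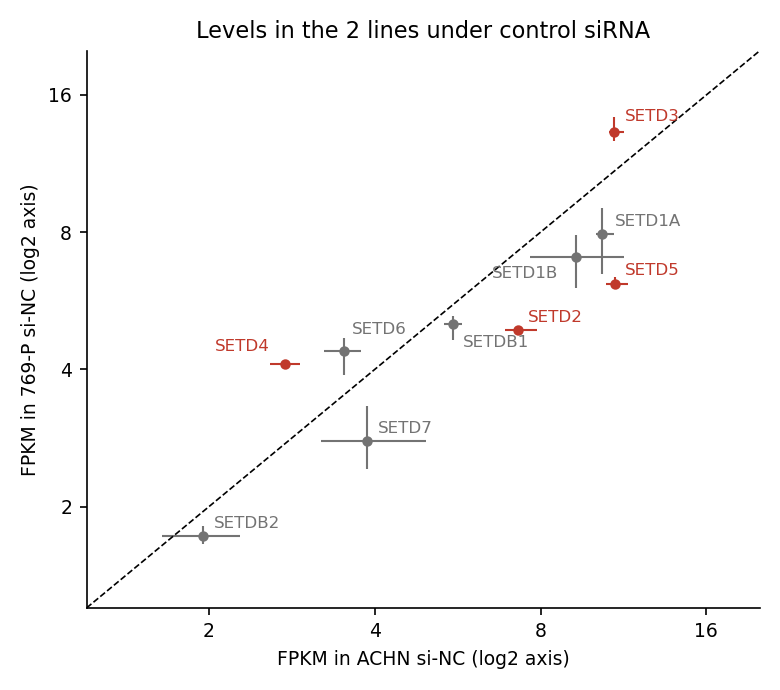
Mean FPKM of each gene in 769-P against ACHN cells under si-NC, on log2 axes; bars span the lowest to the highest of 3 libraries, the dashed line marks equal levels, and red marks the 4 genes that passed an adjusted p of 0.05. SETD2 and SETD5 lie below the line, SETD3 and SETD4 above it, and SETD7 at 2.78 and 3.88 FPKM did not pass.

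No other SET domain methyltransferase tested reached a log2 fold change of 1 in either line. Of 25 other SET domain methyltransferases, 24 were tested, 0 passed in 769-P without the block and 5 had an unadjusted p under 0.05; the log2 fold changes ran from -0.31 to 0.32. With the block 5 passed in 769-P, SMYD5 higher and ASH1L, EHMT2, KMT5B and SMYD2 lower (named here, as are other block-only calls in 769-P, after their values were seen), a share of 20.8% that lies below the 27.5% of all genes. In ACHN 0 of 24 passed without the block and 3 with it, 12.5% beside 12.2% of all genes, all higher: SUV39H2, an H3 lysine 9 methyltransferase (0.64, limma, adjusted p = 0.0167), SMYD5 (0.33, adjusted p = 0.025) and NSD2, an H3 lysine 36 methyltransferase (0.30, adjusted p = 0.0279). SUV39H2 was 3.81, 4.85 and 4.86 FPKM with si-NUF2 and 2.32, 3.41 and 3.01 with si-NC in ACHN, without overlap. Of 16 PRDM genes, whose PR domain is related to SET, 7 were tested and the 6 besides PRDM8 did not pass in either line, with or without the block. PRDM8 was 1.26, 1.14 and 1.28 FPKM with si-NUF2 and 0.555, 0.476 and 0.390 with si-NC in 769-P, a low level in either group (log2 fold change 1.22). It passed the low-value filter of 0.5 in 3 libraries there only through the si-NUF2 group, so that its being tested depended on the higher level, and the value is a description without a test. In ACHN cells, where both groups were above the filter, PRDM8 did not pass, with overlapping groups of 1.76 to 4.33 and 1.55 to 4.85 FPKM.

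The genes of known SETD7 substrates did not follow SETD7 at the RNA level in 1 direction. Of 18, 16 were tested, with a median log2 fold change of -0.02 in 769-P and 0.01 in ACHN. Without the block, 1 passed as higher and 1 as lower in 769-P, a share of 12.5% that lies near the 10% of all genes. YAP1, the Hippo pathway coactivator, rose in 769-P from 10.6, 10.5 and 11.3 FPKM to 14.0, 13.4 and 14.1 (0.36, limma, adjusted p = 0.0229). CTNNB1, which encodes beta-catenin, fell from 32.1, 32.6 and 35.2 to 27.1, 26.8 and 27.5 FPKM (-0.28, adjusted p = 0.038). With the block 6 of 16 passed in 769-P, 2 higher and 4 lower, beside 27.5% of all genes; FOXO3, SIRT1 and SMAD7 were among the 4. In ACHN 0 of 16 passed without the block; with it, where 12.2% of all genes passed, E2F1 (0.81, limma, adjusted p = 0.0241), DNMT1 (0.46, adjusted p = 0.0171) and YAP1 were higher, and SMAD7 (-0.34, adjusted p = 0.0346) and FOXO3 (-0.32, adjusted p = 0.0388) lower. Methylation of these proteins was not measured.

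The genes whose levels most resembled SETD7 were not SET domain genes. Over the 12 libraries, after the mean of each line was removed, the highest Pearson correlations with SETD7 among 12933 genes were those of SKA2 (0.99), ADAM15 (0.98), DENND5A (0.98), XRCC4 (0.98) and PAFAH1B2 (0.98). These points share the libraries and the si-NUF2 contrast that selected SETD7, and the values are a description. SKA2, a protein of the spindle and kinetochore, averaged 16 FPKM with si-NUF2 and 9.16 with si-NC in 769-P, while its ACHN means were 21.2 and 14.4 FPKM. ADAM15, a metalloprotease, averaged 16.2 and 6.83 FPKM in 769-P, and 18.1 and 9.94 in ACHN. Of the other 9 members SETD1A ranked highest, at 892 (0.74), SETD5 followed at 1583 (0.62), and SETD3 was lowest, at 12490 (-0.81).

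Short words in the transcripts were compared because the siRNA mix can pair with other mRNAs through guide bases 2 to 8. The word TCGGAGA was noticed earlier among genes that rose in these same libraries, SETD7 included, so its presence in SETD7 supports nothing and is given as a description; the words TTAAGCA and TTGAGAG pair with guide bases 2 to 8 of siRNA-NUF2-2 and siRNA-NUF2-3. The words were read on the transcript strand of GENCODE 29 transcripts (hg38) and do not overlap each other in the members. SETD7 is the 1 member with TCGGAGA in its longest 3′ UTR, 287 bases into the 5627 of the transcript (exon 8 of 8, chr4:139511370-139511376, minus strand, in 1 of 6 protein-coding transcripts), and SETD1A holds it in its coding sequence (exon 11 of 19, chr16:30969454-30969460, plus strand). SETD3 holds TTGAGAG in its coding sequence (exon 4 of 8, chr14:99461209-99461215, minus strand). The sites in SETD7 and in the 2 other members that passed in a line are shown 5′ to 3′, with the word in capitals:
SETD7, 3′ UTR: ctgtaccacatTCGGAGAtgccaaatgat
SETD1A, coding: aggagtcctccTCGGAGAaggatgaggag
SETD3, coding: agggctttggtTTGAGAGcaacaagagat

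TTGAGAG also lies in the coding sequence of SETD2 and in the 3′ UTR of SETDB2, neither of which passed with knockdown, and in 1 further transcript of SETD4, and TTAAGCA lies in none of the longest-UTR transcripts of the 10. Neither word of the siRNAs lies in SETD7. TCGGAGA lies in 10.8% of 12159 such transcripts and in the longest 3′ UTR of 2.13% of the 11043 genes tested in 769-P with an annotated 3′ UTR in a protein-coding transcript; of 372 3′ UTRs within 10% of the length of that of SETD7, 4.57% hold it. TTGAGAG lies in 22.8% of the transcripts and TTAAGCA in 19.8%. Of the same 372 3′ UTRs, 36.8% hold TTGAGAG and 40.6% hold TTAAGCA. Genes with TCGGAGA in the 3′ UTR had a median log2 fold change of 0.13 in 769-P and 0.12 in ACHN. Genes without it had -0.01 and 0.01, and their 3′ UTRs were shorter (median 1357 against 2668 bases in 769-P). Because the word was noticed among genes that rose in these libraries, a higher median was built into its choice. The difference is a description and supports nothing. Genes with a word of the siRNAs had lower medians, -0.095 and -0.059 for TTAAGCA and -0.030 and -0.008 for TTGAGAG in the same order of lines. Genes without TTAAGCA had 0.002 and 0.019, and those without TTGAGAG -0.007 and 0.012. Here too the 3′ UTRs were longer with the word. Their medians in 769-P were 3297.5 against 1180 bases for TTAAGCA and 3273 against 1183 for TTGAGAG. The fold changes were not adjusted for this length. The 5 genes most like SETD7 hold 0 of the 3 words in their longest 3′ UTRs. Whether a word plays a part in any of these changes was not tested, and the sequence of si-NC is not given in the sources used here.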

How the data were processed

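RNA of 12 libraries was sequenced on an Illumina platform; reads were filtered with fastp, and the submitters' processing notes name HISAT2 (version 2.0.5), featureCounts (version 1.5.0-p3) and hg38. The authors deposited FPKM per gene and library, and raw counts, the annotation and the strand setting are not given in the sources used here. With GENCODE 29 exon lengths, whole reads were recovered for 34602 of 36305 genes above 0 (96.0% of values under 1000 reads were whole within 0.02 reads).

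FPKM were scaled by trimmed means of log ratios (30% of ratios and 5% of levels trimmed), filtered at 0.5 in at least 3 libraries, and tested as log2(FPKM + 0.1) with limma (version 3.58.1, R 4.3.3) with a mean-variance trend, each line on its own, with Benjamini-Hochberg adjustment over all genes and a threshold of 0.05. Fold changes are on that log2 scale and understate those of low genes. Groups came from the labels. Same-numbered si-NUF2 and si-NC libraries deviated together (r = 0.36, 0.28 and 0.19 for the 769-P pairs and 0.65, 0.74 and 0.46 for the ACHN pairs), so the replicate number was also fitted as a block; the numbers come from the labels, which do not say what they mark. Other alternatives were scaling, filter, pseudocount, limma-voom on recovered reads, 1 fit of all libraries and leaving out each library. The fits were tested on simulated data. FPKM have no counting interval here. Depth limits precision, and the sums of recovered reads leave out genes whose reads were not recovered.

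The members and lists were chosen with earlier results of these data known. All 10 members are named; from each other list, the 2 highest and 2 lowest changes that passed in 769-P, and in ACHN with the block; the 5 genes most like SETD7; and NUF2 as the target. The 89 entries of the other lists all matched a gene in the files, TASOR through its gene identifier. Some entries of these lists are counted but not reported here by name.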

Additional observations from a re-analysis of the deposited data

Results flagged for a closer look

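SETD3 passed as different in its response between the lines only in the fit with the replicate block. The ACHN response less that of 769-P was 0.4961 on the log2 scale with the replicate block (limma, adjusted p = 0.0335). SETD3 fell in 769-P, with all 3 pairs lower, and 1 of 3 pairs was higher in ACHN, where its log2 fold change was 0.00. Without the block the adjusted p was 0.822, and it ranged from 0.0335 to 1 over the alternatives.

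SETD6 moved in opposite directions in every pair of the lines, by -0.06053 in 769-P (lower in 3 of 3 pairs) and by 0.05406 in ACHN (higher in 3 of 3 pairs). The difference, 0.10, did not pass with limma (adjusted p = 1, and 0.481 with the block), and each change was smaller than the SD of the log2 levels within either group.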

How the results depend on the processing

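Members called under the alternatives: the replicate block moved the number from 1 to 2 of 9 in 769-P (SETD1A added), from 0 to 1 in ACHN (SETD1A) and from 0 to 1 for the difference between the lines (SETD3); no other alternative, leaving out each library in turn included, moved a count of members by over 1.5 times. Between the lines under si-NC the count lay between 3 and 5 of 10, and the block lost SETD3. There SETD1A passed with median-ratio scaling, with FPKM as deposited, with limma-voom and without 769-P si-NC replicate 2, and SETD6 with upper-quartile scaling and without 769-P si-NC replicate 3 or ACHN si-NC replicate 1. Of 430 values of members with a test, 395 kept direction and side of the threshold, and none of the 20 that changed sign was a called value. For the difference between the lines, SETD3 was the only tested member among these values. The 50 SETD7 values without a test kept their direction. In ACHN the change of SETD2 was 0.0026 with upper-quartile scaling, and that of SETD3 -0.0075 with median-ratio scaling, -0.014 as deposited, -0.013 with limma-voom and -0.00495 in 1 fit of all libraries. SETDB1 between the lines was 0.022 with upper-quartile scaling, which moved the median of all genes from 0.03 to 0.17, so that SETDB1 stayed below that median. Leaving out each library gave -0.145 to 0.0038 for SETD6 and -0.085 to 0.011 for SETDB1 in 769-P, and in ACHN -0.256 to 0.103 for SETD1B, -0.067 to 0.051 for SETD2, -0.021 to 0.035 for SETD3, -0.0039 to 0.110 for SETD6 and -0.221 to 0.110 for SETDB2. Over all genes, 1420 were called in 769-P, 3897 with the block, 649 without a filter, 718 in 1 fit of all libraries and 365 to 1144 without 1 library; in ACHN 0, 1843 with the block and 165 in 1 fit; between responses 0, 230 with the block, 15 without a filter and 2 with a pseudocount of 0.01. The cause of these shifts was not tested. FPKM limit how well low genes can be tested.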
